A study of Mus musculus with 8 samples.

Results

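Oligodendrocytes wrap axons in myelin, a stack of membrane rich in a small set of lipids and proteins. They arise from dividing precursor cells that express the receptor Pdgfra and the proteoglycan Cspg4, pass through a committed stage marked by Gpr17 and Bcas1, and then switch on the myelin genes under factors such as Olig2, Sox10 and Myrf. The 35 transcripts described here are known for their use by these cells and were picked by gene symbol from that background, not by a threshold on the values. That use need not be by these cells alone, and the roles below come from the same background. The choice was made with earlier results of these data known, so the split of the 35 is only a description. All 35 had a row among the 24060 gene symbols of the deposited files, and all 35 passed the filter on low values.

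The samples came from the brain cortex of 4 young adult mice, male and female, of about postnatal day 80. Every animal had the genotype Aldh1l1-creERT2 hemi; Ribotag het, so the input and the immunoprecipitated libraries share both alleles. The first allele expresses a tamoxifen-inducible Cre recombinase from the promoter of Aldh1l1, a gene of astrocytes, and the second puts a hemagglutinin (HA) tag on a ribosomal protein in cells where Cre has acted. Each animal gave an input library, from RNA of the cleared lysate, and a second library, called HA IP, from RNA on the precipitated tagged ribosomes. The groups therefore hold 4 input and 4 HA IP libraries, named by the animal numbers 579, 580, 581 and 595, and values are listed in that order. Mice without Cre were not analysed here, so RNA that binds without a tagged ribosome has no measured level.

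The libraries held 33834388 to 53625125 fragments. Rank correlations across genes were 0.982 to 0.993 between HA IP libraries and 0.990 to 0.996 between input libraries. Aldh1l1 itself averaged 21.8 ± 0.926 FPKM (fragments per length of gene and depth of library) in input and 406 ± 26.2 FPKM after precipitation (SD, n = 4), a log2 fold change of 5.05 ± 0.08 (SE). All 10 astrocyte markers rose in HA IP, all 10 neuron markers and all 10 microglia markers fell, and 8 of 10 endothelial and mural markers fell, with 2 not passing the test. The summed FPKM of the astrocyte markers were 10989 to 11575 in HA IP and 816 to 876 in input, those of the neuron markers 92.9 to 118 and 2336 to 2604, and no marker of the 4 lists was at 0. Fold changes below are log2(HA IP/input) from limma on log2(FPKM + 0.1) after trimmed mean of M-values (TMM) scaling, with Benjamini-Hochberg adjustment over the 15605 genes tested and a threshold of 0.05. The deposited scale leaves out the TMM factors, which moves the median of all genes from 0.01 to -0.75. FPKM values are on the deposited scale throughout.

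The 35 transcripts split into a large group that fell in HA IP and a smaller one that rose. In HA IP 25 fell, 8 rose and 2 did not pass the test, where 41.1% of all genes tested fell, 42.1% rose and 83.2% did either. Their median log2 fold change was -2.52, against 0.01 over all genes, and single transcripts ranged from -4.41 for Ugt8a to 3.29 for Tmem100. On the deposited scale 27 fell and 6 rose, with 61.6% of all genes lower, 23.3% higher and 84.9% either, and their median was -3.31. For 25 transcripts every HA IP library lay below every input library on the deposited scale, which was so for 59.0% of all genes tested. For 6 every HA IP library lay above every input library, which was so for 22.0% of all genes. The groups overlapped for Aspa, Qdpr, Nkx6-2 and Bmp4. Both libraries of an animal come from the same animal, so a fold change sets RNA on precipitated ribosomes against RNA of the lysate. It does not measure the number of cells of a type or the RNA per cell.

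**Figure D1:**
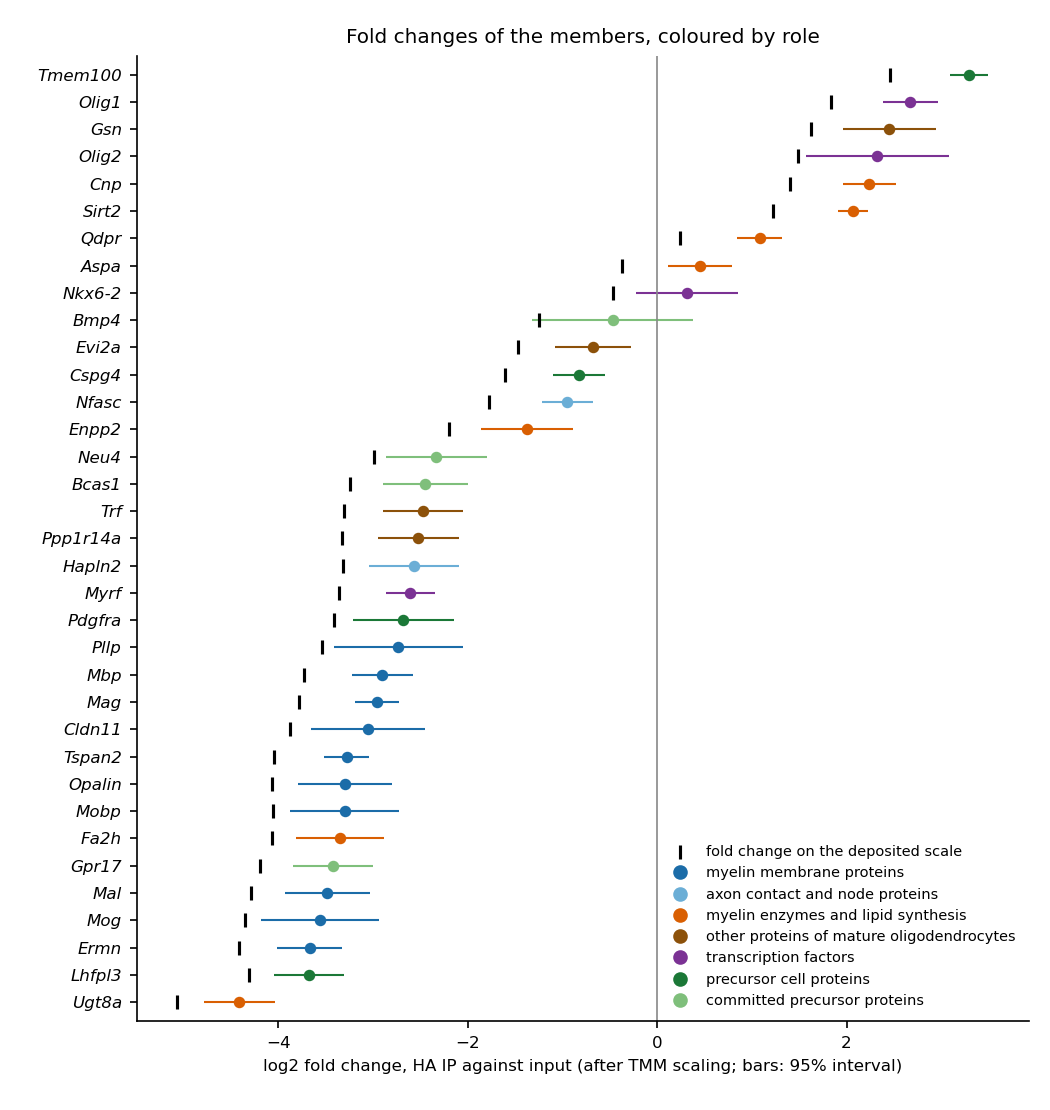
Log2 fold change of HA IP over input after TMM scaling for each of the 35 transcripts, coloured by role, with 95% intervals from limma, and black ticks for the deposited scale. The values run from -4.41 (Ugt8a) to 3.29 (Tmem100), and Aspa and Nkx6-2 change sign on the deposited scale.

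The transcripts that fell stood in HA IP at 1.66% to 33.6% of their input mean, with a median of 7.18%. The 8 that rose after TMM scaling stood at 77.6% to 555% of input, with a median of 291%, on the same deposited scale. On that scale 6 of them were called higher, Aspa, at 77.6%, was called lower, and Qdpr had no call. Together the 25 that fell took 0.166% to 0.215% of all fragments in the input libraries and 0.0214% to 0.0236% in the HA IP libraries. The 8 that rose went the other way, from 0.0432% to 0.0526% in input to 0.111% to 0.141% in HA IP. In every animal the 25 had a median log2 ratio below 0, of -3.15, -2.98, -2.98 and -2.61, and the 8 a median of 2.15, 2.02, 2.63 and 2.20. These medians only describe the split, since the calls that define it come from the same libraries.

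Sequence upstream of the gene start is shown for the largest falls and the largest rises among transcripts with 1 promoter entry. Whether it bears on the ratio of HA IP to input was not tested. The stretches come from RefSeq on GRCm38.p6, the assembly that mm10 names, and run 5′ to 3′ on the gene's strand up to the base before the gene's first annotated base. They lie at chr3:125938683-125938902 on the minus strand for Ugt8a and at chr5:22745804-22746053, chr16:91225300-91225549 and chr11:100574689-100574908 on the plus strand for Lhfpl3, Olig2 and Cnp. Capitals mark matches, on either strand, to CAGCTG or CATATG (letters that basic helix-loop-helix factors such as Olig2 can bind), ACAAAG or ACAATG (bound by SOX factors) and TATAAA.
Ugt8a: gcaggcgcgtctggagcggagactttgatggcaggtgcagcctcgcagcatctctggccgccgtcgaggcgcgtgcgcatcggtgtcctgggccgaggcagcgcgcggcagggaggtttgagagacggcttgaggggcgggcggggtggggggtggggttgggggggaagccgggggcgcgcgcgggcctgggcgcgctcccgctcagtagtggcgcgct
Lhfpl3: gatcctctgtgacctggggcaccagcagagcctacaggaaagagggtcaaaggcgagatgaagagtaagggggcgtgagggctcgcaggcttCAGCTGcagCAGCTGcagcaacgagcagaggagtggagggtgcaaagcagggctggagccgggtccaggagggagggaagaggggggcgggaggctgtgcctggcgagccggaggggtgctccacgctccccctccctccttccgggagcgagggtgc
Olig2: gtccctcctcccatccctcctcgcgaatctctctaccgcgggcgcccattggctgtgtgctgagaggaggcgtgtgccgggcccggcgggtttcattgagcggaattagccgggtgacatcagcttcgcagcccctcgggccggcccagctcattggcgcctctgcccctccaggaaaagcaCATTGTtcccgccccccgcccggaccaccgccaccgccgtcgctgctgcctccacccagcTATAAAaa
Cnp: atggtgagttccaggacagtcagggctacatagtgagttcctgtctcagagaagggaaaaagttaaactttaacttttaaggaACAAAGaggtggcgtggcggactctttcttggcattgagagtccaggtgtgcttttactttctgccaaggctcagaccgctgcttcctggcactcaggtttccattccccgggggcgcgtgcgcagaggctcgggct
The stretch of Ugt8a, which fell, held none of these motifs. That of Lhfpl3, which also fell, held CAGCTG at 158 and 149 bases before the start. It lies within the long noncoding RNA gene A930003O13Rik (chr5:22738910-22746884), which also overlaps the start of Lhfpl3. Olig2, which rose, had CATTGT, the reverse complement of ACAATG, at 68 bases and TATAAA at 8 bases before the start. Cnp, which rose, had ACAAAG at 137 bases before the start of the gene. RefSeq promoters were at hand for 25 of the 35 genes and for 27025 genes in all. In the 250 bases before the start given with each promoter entry, which for Ugt8a and Cnp lies 30 bases inside the gene, CAGCTG was found in 4 of the 25 and in 12.8% of all genes, CATATG in 1 and 3.48%, ACAAAG in 4 and 16.5%, ACAATG in 4 and 10.99%, and TATAAA in 2 and 12.97%. A match of letters is a description and not a binding site.

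The myelin membrane proteins fell together: all 10 passed the test, with log2 fold changes around a median of -3.29 and a range of -3.67 to -2.73. Over all genes tested 41.1% fell. HA IP held 3.57% to 8.74% of the input means of these 10. Mbp, which encodes myelin basic protein, the protein that holds the inner faces of the membrane together, had 35.2, 35.4, 27.4 and 24.1 FPKM in input. In HA IP it had 2.39, 2.37, 2.15 and 1.85 FPKM. Every HA IP value of Mbp lay far below every input value, and in both groups animals 579 and 580 were the higher ones. The log2 fold change was -2.90 ± 0.14 (SE; limma, adjusted p = 3.06e-08). The length behind the FPKM of Mbp was 19830 bases, within a gene span of 110547 bases, so no level is set against that of another gene.

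Mog, a glycoprotein of the outermost myelin surface, had 16.9, 19.8, 13.3 and 11.7 FPKM in input and 0.941, 0.770, 0.341 and 0.678 FPKM in HA IP. Its groups did not overlap, and the HA IP library of animal 581 was the low one. The log2 fold change was -3.56 ± 0.28 (SE; limma, adjusted p = 8.36e-07). Ermn, an actin-binding protein of myelinating cells, fell the most of the 10, by 3.67 ± 0.15 (SE) on the log2 scale, from 7.28 to 9.16 FPKM in input to 0.210 to 0.348 FPKM in HA IP. Mag, the adhesion protein that faces the axon, fell by 2.96 ± 0.10 (SE) on the log2 scale, and its HA IP libraries stayed between 1.55 and 1.92 FPKM.

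Pllp and Cldn11 varied the most of the 10 between HA IP libraries. Pllp, a membrane protein with several membrane spans, had 0.918, 1.14, 2.43 and 0.737 FPKM in HA IP, with the high value in animal 581. Its input libraries had 16.3, 17.6, 14.1 and 11.8 FPKM, all above that, and the log2 fold change was -2.73 ± 0.30 (SE). Cldn11, the claudin that seals the layers of myelin, had 1.56, 1.80, 1.43 and 3.95 FPKM in HA IP, with the high value in animal 595. Its input libraries had 35.6, 32.2, 25.6 and 30.5 FPKM, and the log2 fold change was -3.05 ± 0.27 (SE). The other members fell by 3.30 (Mobp), 3.48 (Mal), 3.28 (Tspan2) and 3.29 (Opalin) on the log2 scale.

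**Figure D2:**
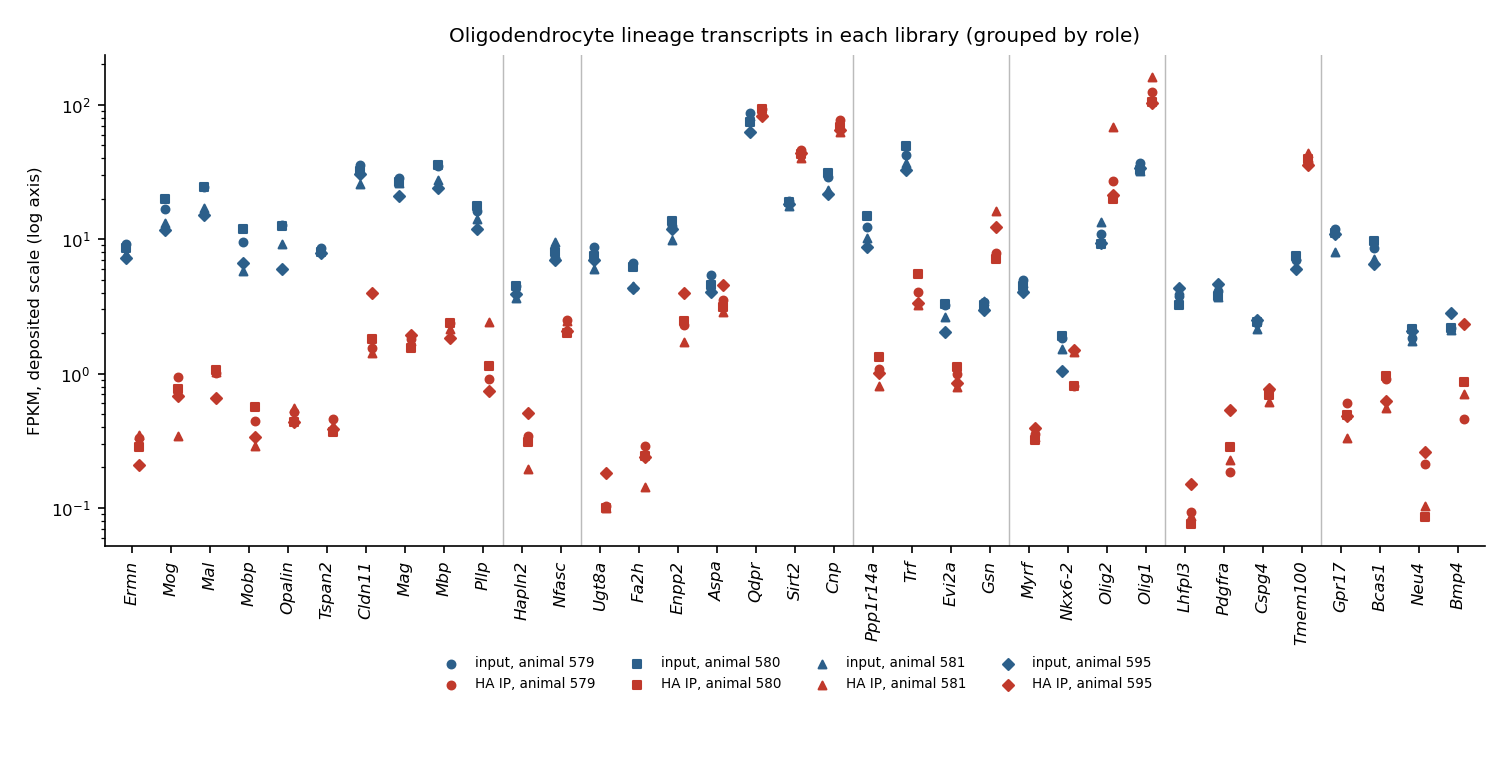
FPKM of each of the 35 transcripts in the 4 input and 4 HA IP libraries on a log axis, 1 point per library, grouped by role. The 10 myelin membrane proteins keep all HA IP points below all input points, while Aspa, Qdpr, Nkx6-2 and Bmp4 overlap.

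Both proteins of the contact between myelin and axon fell, to different degrees, where 41.1% of all genes tested fell. Hapln2, a link protein of the matrix at the node of Ranvier, had 4.44, 4.47, 3.65 and 3.93 FPKM in input and 0.342, 0.308, 0.196 and 0.505 FPKM in HA IP, a log2 fold change of -2.57 ± 0.21 (SE). Nfasc encodes neurofascin, whose forms are made by glia and by neurons. It had 7.27, 8.05, 9.51 and 7.04 FPKM in input and 2.48, 2.01, 2.45 and 2.08 FPKM in HA IP. Its groups did not overlap, yet the log2 fold change was only -0.95 ± 0.12 (SE; limma, adjusted p = 3.73e-05). The gene-level values do not separate the forms.

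Enzymes of myelin and of its lipids went both ways, with 3 falls and 4 rises among 7. Over all genes tested 41.1% fell and 42.1% rose, so the count that fell is near that share. Ugt8a, which makes galactosylceramide, the main glycolipid of myelin, had 8.68, 7.45, 6.03 and 7.02 FPKM in input and 0.104, 0.1004, 0.0991 and 0.181 FPKM in HA IP. HA IP thus held 1.66% of the input mean, the lowest share of the 35. The log2 fold change was -4.41 ± 0.17 (SE; limma, adjusted p = 4.81e-09). Because its HA IP values lie near the pseudocount of 0.1, that size moves with it, to -2.46 with a pseudocount of 1 and -5.02 with 0.01. Fa2h, which hydroxylates the fatty acids of the same lipids, fell by 3.35 ± 0.21 (SE) on the log2 scale. Enpp2, the secreted enzyme autotaxin, fell by 1.38 ± 0.22 (SE), and its HA IP libraries had 2.32, 2.45, 1.73 and 4.00 FPKM, again highest in animal 595.

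Cnp and Sirt2 rose. Cnp, a phosphodiesterase of non-compact myelin, had 29.0, 30.9, 23.0 and 21.8 FPKM in input and 77.5, 68.6, 63.1 and 65.3 FPKM in HA IP. Every HA IP library was above every input library, and the log2 fold change was 2.24 ± 0.12 (SE; limma, adjusted p = 6.43e-08), or 1.40 on the deposited scale. The fragment count of Cnp relative to that of Mbp, a ratio within 1 library that no scaling touches, was 0.203 to 0.222 in input and 7.11 to 8.68 in HA IP. Cnp (chr11:100574909-100591875) shares positions 100582818 to 100591875 with Dnajc7, which had a mean of 64.2 FPKM in input and 88.8 FPKM in HA IP. The strand setting of the counting is not given in the sources used here, so the split of fragments between these overlapping genes is uncertain. Sirt2, a deacetylase of tubulin found in myelin sheaths, had 19.1, 19.0, 17.5 and 18.1 FPKM in input and 45.8, 43.3, 40.2 and 43.5 FPKM in HA IP, a log2 fold change of 2.06 ± 0.07 (SE).

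Aspa and Qdpr depended on the scale. Qdpr, which regenerates tetrahydrobiopterin, had 86.4, 74.0, 82.4 and 62.5 FPKM in input and 93.5, 92.8, 90.5 and 81.9 FPKM in HA IP. HA IP was higher in each animal, but the groups overlapped. The log2 fold change was 1.08 ± 0.11 (SE; limma, adjusted p = 5.15e-06), and 0.24 on the deposited scale (limma, adjusted p = 0.0537). Aspa, which splits N-acetylaspartate, had 5.39, 4.57, 4.24 and 4.02 FPKM in input and 3.53, 3.14, 2.88 and 4.59 FPKM in HA IP. HA IP was the lower library in 3 animals and the higher one in animal 595. After TMM scaling it rose by 0.45 ± 0.15 (SE; limma, adjusted p = 0.0166), on the deposited scale it fell by 0.37 (limma, adjusted p = 0.0454), and without animal 595 the TMM value was 0.29 (limma, adjusted p = 0.0843).

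Of 4 further genes of mature oligodendrocytes, 3 fell and Gsn rose, where 41.1% of all genes tested fell and 42.1% rose. Gsn encodes gelsolin, which severs actin filaments. It had 3.43, 3.24, 3.49 and 2.97 FPKM in input and 7.86, 7.12, 16.2 and 12.4 FPKM in HA IP, so that animals 581 and 595 stood above the other two. The log2 fold change was 2.45 ± 0.22 (SE; limma, adjusted p = 2.50e-06). Trf, the iron carrier transferrin, had 42.6, 49.4, 36.6 and 32.8 FPKM in input and 4.04, 5.51, 3.23 and 3.37 FPKM in HA IP, with animal 580 highest in both groups. It fell by 2.47 ± 0.19 (SE) on the log2 scale. Ppp1r14a, an inhibitor of a phosphatase, fell by 2.52 ± 0.19 (SE). Evi2a fell by 0.67 ± 0.18 (SE; limma, adjusted p = 0.00556), from 2.04 to 3.28 FPKM in input to 0.790 to 1.12 FPKM in HA IP. It lies inside Nf1, which had a mean of 12.1 FPKM in input and 7.31 FPKM in HA IP, so its count is uncertain for the same reason as that of Cnp.

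Of the 4 transcription factors Olig1 and Olig2 rose, Myrf fell and Nkx6-2 had no call. Over all genes tested 41.1% fell and 42.1% rose, so the count that rose is near that share. Olig1 and Olig2 encode related basic helix-loop-helix factors that specify the lineage. They are neighbours on chromosome 16 (chr16:91269769-91271939 and chr16:91225550-91228677), with 41091 bases between them and 0 other RefSeq genes wholly within that gap. The long noncoding RNA gene Gm52261 (chr16:91228579-91233774) overlaps the end of Olig2 and runs into the gap. Olig1 had 37.2, 32.7, 32.4 and 33.8 FPKM in input and 124, 104, 161 and 103 FPKM in HA IP, a log2 fold change of 2.68 ± 0.13 (SE; limma, adjusted p = 2.77e-08). Olig2 had 10.97, 9.16, 13.3 and 9.28 FPKM in input and 27.2, 19.7, 68.6 and 21.4 FPKM in HA IP. Animal 581 was the high one for Olig2 in both groups, and the log2 fold change was 2.33 ± 0.34 (SE; limma, adjusted p = 9.78e-05). Olig2 stood at 1.94 without the HA IP library of animal 581. The fragments of Olig1 relative to those of Olig2 were 2.166 to 3.24 in input and 2.09 to 4.72 in HA IP, so the ranges overlapped.

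Myrf, the factor that switches on the myelin genes at the end of differentiation, had 4.97, 4.47, 4.68 and 4.01 FPKM in input and 0.358, 0.320, 0.340 and 0.393 FPKM in HA IP. Its libraries differed little within a group, and the log2 fold change was -2.60 ± 0.12 (SE; limma, adjusted p = 1.41e-08). Nkx6-2, a homeobox factor of maturing oligodendrocytes, had 1.85, 1.89, 1.53 and 1.05 FPKM in input and 0.813, 0.802, 1.44 and 1.49 FPKM in HA IP. HA IP was below input in animals 579, 580 and 581 and above it in animal 595. Nkx6-2 also shares its edge with Inpp5a, which had a mean of 10.6 FPKM in input and 9.33 FPKM in HA IP. The log2 fold change of Nkx6-2 was 0.32 ± 0.24 (SE; limma, adjusted p = 0.238), and -0.46 on the deposited scale (limma, adjusted p = 0.113), so no direction was called.

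**Figure D3:**
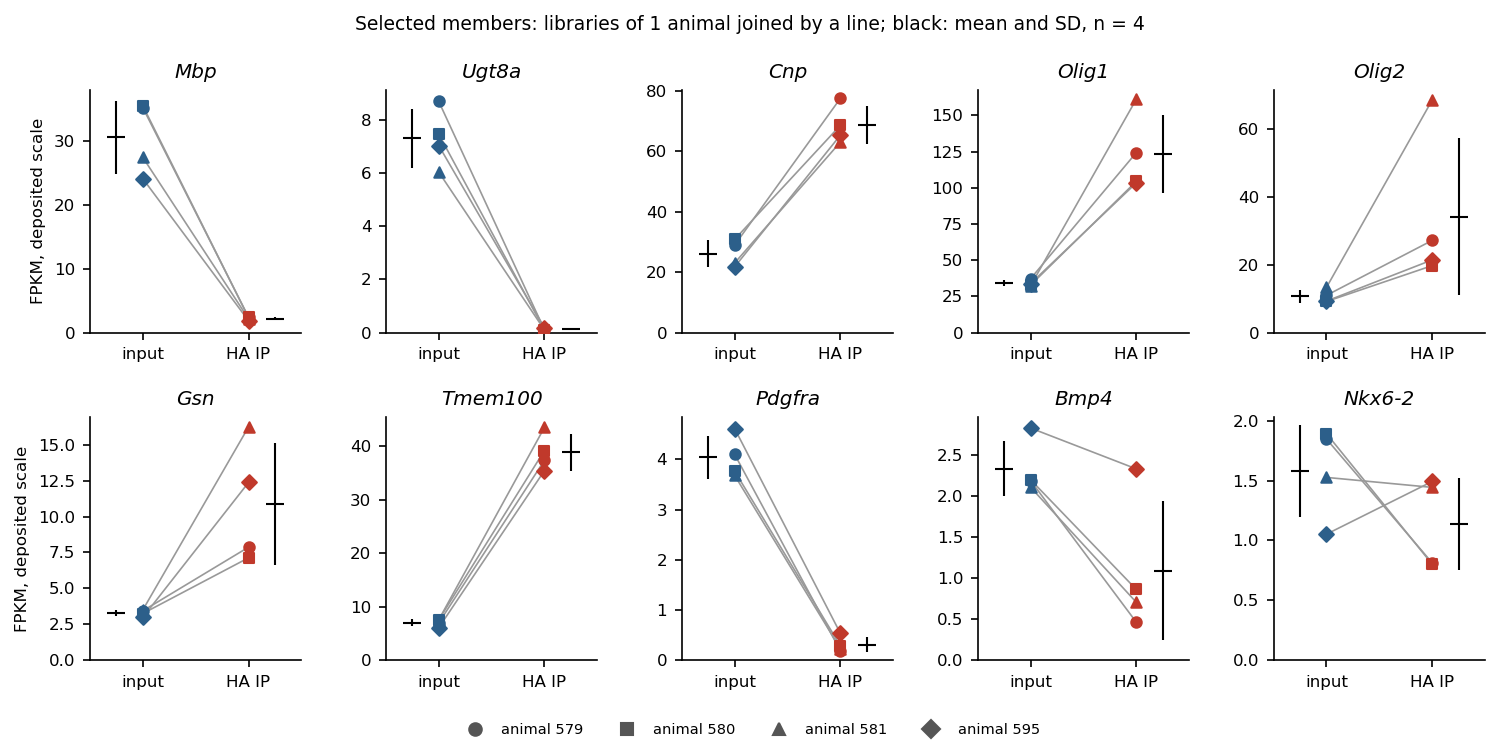
FPKM in input and HA IP for 10 transcripts, with a line joining the 2 libraries of each animal, on linear axes from 0, and black bars for the mean and SD (n = 4). Lines of Mbp, Ugt8a, Pdgfra and Bmp4 go down in all 4 animals, those of Cnp, Olig1, Olig2, Gsn and Tmem100 go up, and those of Nkx6-2 diverge.

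Among the 4 transcripts grouped here as precursor ones 3 fell and Tmem100 rose, where 41.1% of all genes tested fell and 42.1% rose. Pdgfra, the receptor through which platelet-derived growth factor drives precursor division, had 4.10, 3.77, 3.68 and 4.61 FPKM in input and 0.184, 0.285, 0.228 and 0.533 FPKM in HA IP. Animal 595 was highest in both groups, and the log2 fold change was -2.68 ± 0.24 (SE; limma, adjusted p = 2.45e-06). Cspg4, the NG2 proteoglycan that pericytes carry as well, had 2.37, 2.40, 2.14 and 2.49 FPKM in input and 0.754, 0.696, 0.617 and 0.765 FPKM in HA IP. It fell less, by 0.82 ± 0.12 (SE; limma, adjusted p = 0.000116). Lhfpl3, a membrane protein used as a precursor marker, had 3.79, 3.22, 4.21 and 4.31 FPKM in input and 0.0927, 0.0764, 0.0867 and 0.150 FPKM in HA IP. Its log2 fold change of -3.68 ± 0.16 (SE) was -1.78 with a pseudocount of 1 and -4.35 with 0.01. The start of Lhfpl3 overlaps A930003O13Rik, which had a mean of 0.830 FPKM in input and 0.0258 FPKM in HA IP. The count of Lhfpl3 is thus uncertain for the same reason as that of Cnp.

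Tmem100, a small membrane protein, had 6.94, 7.52, 7.51 and 6.05 FPKM in input and 37.4, 39.2, 43.5 and 35.4 FPKM in HA IP. The HA IP mean was 555% of input, and the log2 fold change was 3.29 ± 0.09 (SE; limma, adjusted p = 7.66e-10), the highest of the 35 on both scales. Within a library the fragments of Tmem100 relative to those of Pdgfra were 0.176 to 0.275 in input and 8.94 to 27.3 in HA IP.

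Of the 4 committed-stage transcripts 3 fell, where 41.1% of all genes tested fell. Gpr17, a G protein-coupled receptor of cells about to differentiate, had 11.97, 11.03, 8.01 and 10.9 FPKM in input and 0.607, 0.495, 0.330 and 0.484 FPKM in HA IP, a log2 fold change of -3.42 ± 0.19 (SE; limma, adjusted p = 6.31e-08). Gpr17 lies within Lims2, which had a mean of 3.17 FPKM in input and 0.304 FPKM in HA IP. Bcas1, a marker of newly myelinating cells, fell by 2.45 ± 0.20 (SE), and Neu4, a sialidase, by 2.33 ± 0.24 (SE) on the log2 scale. Bmp4, a secreted signal of the transforming growth factor family, had 2.19, 2.20, 2.11 and 2.83 FPKM in input and 0.462, 0.861, 0.705 and 2.33 FPKM in HA IP. The HA IP value of animal 595 lay above 3 of the 4 input libraries. Its log2 fold change was -0.47 ± 0.38 (SE; limma, adjusted p = 0.267), while it was -0.87 without the HA IP library of animal 595 (limma, adjusted p = 0.0030) and -1.25 on the deposited scale (limma, adjusted p = 0.0109).

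Some transcripts varied together between libraries of 1 group. Among the 25 that fell, 21 lay above their group mean in the input of animal 579 and 21 in that of animal 580, against 5 in animal 581 and 7 in animal 595. Over all genes tested, 44.9% to 54.6% lay above the mean in an input library and 45.3% to 51.6% in an HA IP library. The median log2 deviations after TMM scaling were 0.13, 0.13, -0.14 and -0.14. In HA IP 19, 14, 5 and 13 of the 25 lay above the mean, with median deviations of 0.11, 0.01, -0.24 and 0.00. In FPKM, the HA IP library of animal 581 was the lowest of the 4 for 13 of the 25 transcripts, and for 25.1% of all genes tested. That of animal 595 was the highest for 10 of the 25, among them Cldn11, Hapln2, Ugt8a, Enpp2, Pdgfra, Lhfpl3 and Neu4, where 31.3% of all genes tested were highest in that library. Summed over 10 markers of meningeal fibroblasts, a list added after the values were seen, HA IP had 23.1, 60.5, 28.4 and 95.4 FPKM and input 61.2, 53.7, 51.5 and 49.1 FPKM. Of these markers 8 were highest in the HA IP library of animal 595 and none was at 0, and their part in the high values of that library was not tested.

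**Figure D4:**
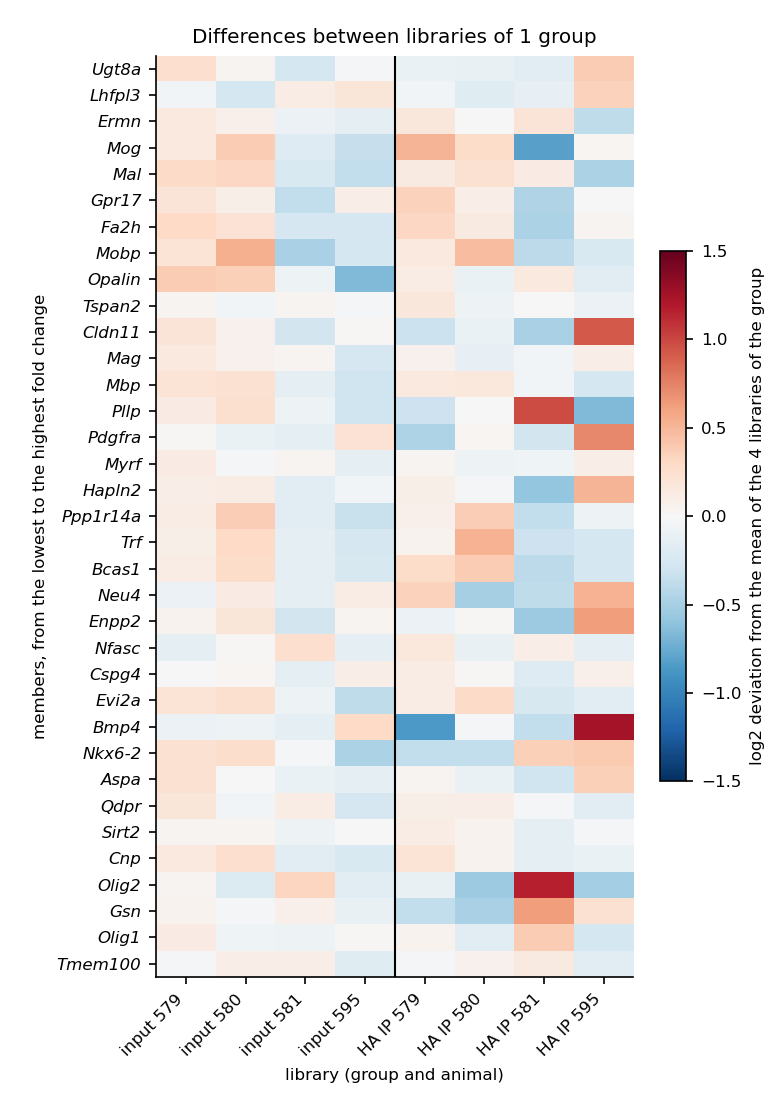
Log2 deviation of each library from the mean of its group, after TMM scaling, for the 35 transcripts (rows) in input and HA IP (columns by animal). Among transcripts that fell, 21 of 25 are above the mean in the input of animals 579 and 580, and Cldn11, Bmp4 and Pdgfra stand out in HA IP of animal 595.

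A further 61 genes known from the lineage, not among the 35, also went both ways. Their lists were chosen with earlier results of these data known, so the split is only a description. In HA IP 35 fell, 22 rose and 4 failed the test, where 41.1% of all genes tested fell and 42.1% rose. Their median log2 fold change was -0.86 against 0.01 over all genes. On the deposited scale 38 fell and 19 rose, with a median of -1.60. On that scale 61.6% of all genes tested were lower and 23.3% higher, so the count that fell is near the share over all genes. Of 32 further genes of myelin and mature cells 19 fell and 10 rose (median -1.10). The lowest values of the list were those of Tppp, a tubulin-binding protein (-3.77), the connexin Gjc3 (-3.18) and Tmem88b (-2.92). The highest were those of Plekhb1 (3.58), Gamt, an enzyme of creatine synthesis (3.42), and the cytokine Il33 (3.20).

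Of 10 further transcription factors 4 fell and 6 rose (median 0.98, or 0.17 on the deposited scale). Over all genes tested 41.1% fell and 42.1% rose, so the count that fell is near that share. Sox10, which the lineage keeps at every stage, had 10.2, 9.51, 9.73 and 7.47 FPKM in input and 0.663, 0.566, 0.698 and 0.884 FPKM in HA IP, a log2 fold change of -2.75 ± 0.14 (SE; limma, adjusted p = 3.55e-08). The fragments of Olig2 relative to those of Sox10 were 0.866 to 1.23 in input and 21.8 to 88.2 in HA IP, and those of Olig1 2.66 to 3.62 and 93.7 to 185. The zinc finger factors Zfp536 and Zfp488 had log2 fold changes of -2.31 and -2.30, the second from as few as 2 fragments in an HA IP library. Tcf7l2, Sox8 and Nkx2-2 rose by 2.69, 2.37 and 1.87 on the log2 scale.

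Of 19 further precursor genes 12 fell and 6 rose (median -0.90), where 41.1% of all genes tested fell and 42.1% rose. Nxph1, a secreted partner of neurexins, was the lowest at -4.59, followed by the matrix protein Tnr at -3.83 and by Susd5 at -2.67. Rlbp1, a retinoid-binding protein, was the highest at 4.41, followed by the proteoglycan Cspg5 at 3.37 and by Smoc1 at 2.30.

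**Figure D5:**
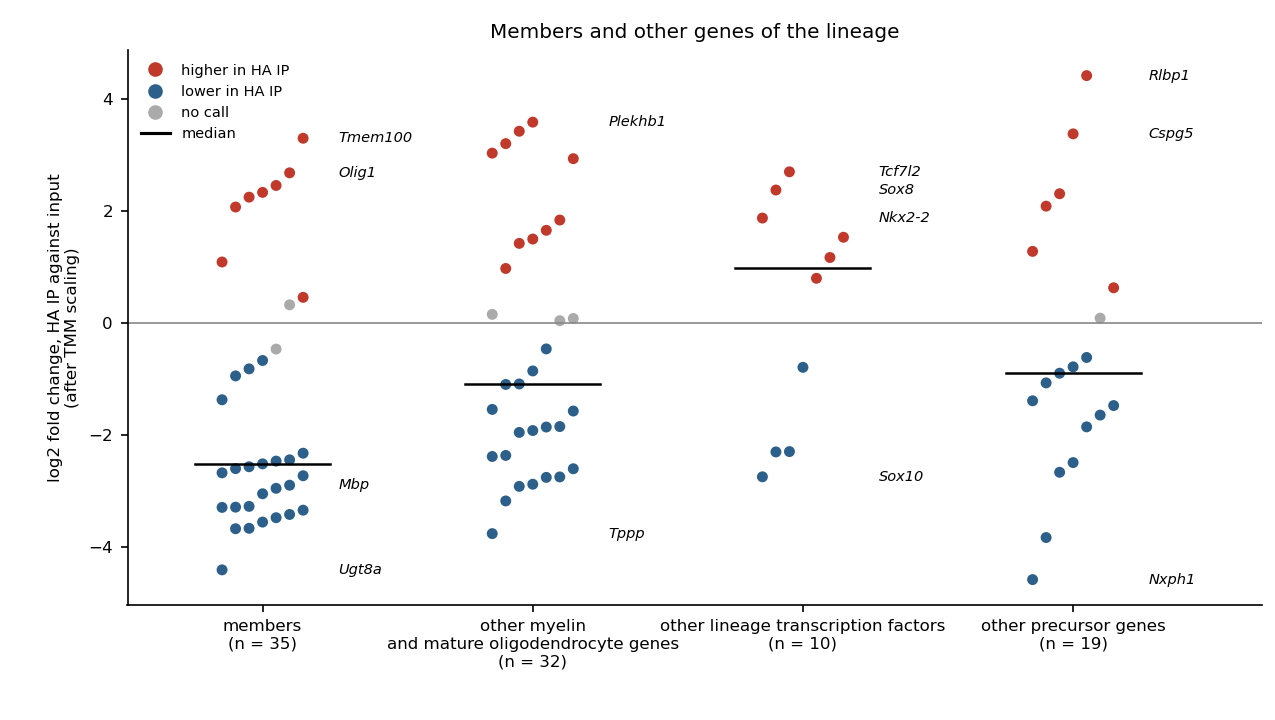
Log2 fold change of HA IP over input after TMM scaling for the 35 transcripts and the 3 lists of 61 further lineage genes, 1 point per gene, coloured by the call, with a line at the median of each list. All 4 lists hold genes on both sides of 0, with medians of -2.52, -1.10, 0.98 and -0.90.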

How the data were processed

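Stranded paired-end mRNA libraries were made from 100 ng of input or HA IP RNA, per the labels' protocols. The tools bcl2fastq 2.17, STAR and HTSeq and the build mm10 appear in the submitters' processing notes. For other versions, the annotation and the strand setting, nothing is given in the sources used here. The files name no unit. The values were read as FPKM deposited by the authors, because they are whole numbers of fragments for 1 length per gene and 1 total per library, which gave the fragments of all 20045 genes above 0. Intervals and SE come from the fit without pairing and cover the spread between the 4 libraries of a group. They do not measure the spread of the ratio of HA IP to input between animals. With the animal as a block the SE could be smaller (Mbp 0.071 against 0.145) or larger (Myrf 0.122 against 0.116).

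FPKM were divided by TMM factors (own code, trims 0.3 and 0.05, no weights). Genes with at least 10 fragments per median library (0.246 CPM) in 4 libraries and 15 in all were tested on log2(FPKM + 0.1), by limma 3.58.1 (R 4.3.3) with trended variance and no block. The scripts were tested on simulated data with few changed genes, as many higher as lower. That setting has no broad shift between the groups, so it cannot vouch for the TMM scaling of these data. Libraries of 1 animal number come from the same animal, and their deviations correlated at 0.219 to 0.398 (at most 0.114 for other pairs). The members and lists were chosen with earlier results of these data known. Named genes are the 35, Sox10, the 3 lowest and 3 highest called genes of each further list, and Aldh1l1, Slc1a2, Snap25, Cx3cr1 and Cldn5; 1 more gene that the rule names is not reported here. Their log2 fold changes not given above were 3.51 for Slc1a2, -4.17 for Snap25, -3.35 for Cx3cr1 and -2.13 for Cldn5. Alternatives were the deposited scale, other pseudocounts and filters, a replicate block, no trend and leaving out libraries.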

Additional observations from a re-analysis of the deposited data

Results flagged for a closer look

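In 7 of 118 groups of 4 libraries, 1 library stood further from the others than Dixon's 95% critical value allows, where chance gives about 1 in 20. Of these, 5 were HA IP groups. Animal 595 had the lowest Mal in HA IP (0.659 FPKM, others 1.001 to 1.06), the highest Cldn11 in HA IP (3.95 FPKM, others 1.43 to 1.80), the highest Ugt8a in HA IP (0.181 FPKM, others 0.0991 to 0.104) and the highest Bmp4 in input (2.83 FPKM, others 2.11 to 2.20). Animal 581 had the highest Olig2 in HA IP (68.6 FPKM, others 19.7 to 27.2) and the lowest Zfp488 in HA IP (0.0104 FPKM, others 0.0306 to 0.0344). Animal 579 had the highest Rlbp1 in input (4.02 FPKM, others 3.19 to 3.27).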

How the results depend on the processing

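Of 1120 values of the 59 named genes under the alternatives, 1113 kept their direction and their side of the threshold. On the deposited scale Aspa (-0.37) and Nkx6-2 (-0.46) changed sign, Qdpr (0.24) lost its call and Bmp4 (-1.25) gained one, and 3643 genes of all rose in place of 6573. Bmp4 was also called without the HA IP library of animal 595 (-0.87) or without that animal (-0.79), and Aspa was lost without animal 595 (0.29). The replicate block by animal left 8 transcripts of the 35 higher and 25 lower and changed no call of a named gene; over all genes it gave 6727 higher and 6579 lower. Leaving out libraries or animals gave 6222 to 6726 higher and 5975 to 6662 lower genes, 7 to 8 and 25 to 26 of the 35, and 21 to 23 and 33 to 35 of the 61 further genes. The deposited scale moved the fold change of all 35 and of 58 of the 59 named genes by over 1.5 times, a pseudocount of 1 that of 15 of the 35 and one of 0.01 that of 2. Zfp488 went from -2.30 to -0.60 with a pseudocount of 1 and to -3.73 with 0.01. Depth limits the low HA IP values, since the 35 had 13 to 17257 fragments there and 155 to 25583 in input.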
